A study of Rattus norvegicus with 6 samples.

Results

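The genes described here are 37 rat marker genes of Kupffer cells and other leukocytes, chosen by name: 17 of macrophages, 1 of all leukocytes, 8 of T cells, 4 of B cells and 7 of neutrophils. Of these, 33 were matched to 38 of the 30367 probes on the array through the transcript accession, and 30 were among the 16389 tested genes. Timd4, Cd79a, Ms4a1 and Mpo had no matched probe and were not analysed here. Cd3e, Cd2 and Cxcr2 had a probe that was not well above background in either group on all 3 arrays and were not tested. The samples are livers of 6 male Wistar Hannover rats. The 3 PCN rats were gavaged daily for 7 days with 100 mg/kg of pregnenolone-16α-carbonitrile, abbreviated PCN, and the 3 control rats with corn oil, the vehicle. The rats were bought at the age of 4 weeks and quarantined for 1 week. Each array held total RNA of whole liver from 1 rat, so transcripts of all liver cell types were measured together.

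Kupffer cells are the resident macrophages of the liver. They sit in the sinusoids, take up bacteria, lipoproteins and old blood cells, and carry receptors for bacterial products and complement. T cells, B cells and neutrophils pass through the same vessels in smaller numbers. PCN, a steroid made by synthesis, is a ligand of the rodent pregnane X receptor, a nuclear receptor best known for inducing drug-metabolizing enzymes in hepatocytes.

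Signals are given on a log2 scale relative to the 75th percentile of each array, so 0 stands for a signal equal to that percentile and each unit for a doubling. The 75th percentile itself was 488 to 627 intensity units on the PCN arrays and 633 to 758 on the control arrays. Of all spots, 61.6% to 65.8% were well above background on the PCN arrays and 65.5% to 68.9% on the control arrays. PCN replicate 3 had the lowest 75th percentile and the lowest share of such spots. The PCN arrays lay on 1 slide with 1 scan and the control arrays on another, so for each result below the slide and the PCN dosing cannot be told apart. Log2 fold changes are PCN minus control with a standard error (SE), and a gene is said to have risen or fallen where limma gave a Benjamini-Hochberg adjusted p under 0.05 over all 16389 genes.

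The labelled tissue carried the transcripts of its resident macrophages. All 16 macrophage markers with a probe were well above background on all 6 arrays, including Clec4f, a lectin that in rodents marks Kupffer cells. Ptprc, which encodes the leukocyte antigen CD45, was detected on all 6 arrays as well. Several T cell transcripts were near the limit of detection, though Cd3d, Cd3g and Cd8a were well above background on all 6 arrays. Cd3e was well above background on 1 PCN array and 0 control arrays, and Cd2, a T cell adhesion receptor, on 0 arrays of either group. Cxcr2, a chemokine receptor of neutrophils, was likewise above background on 0 arrays of either group. Lck passed the filter through the control arrays, with 1 of 3 PCN arrays well above background, and so did Cd4 and Cd79b, each with 2 of 3 PCN arrays. Cd5 passed through the PCN arrays, with 1 of 3 control arrays well above background.

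Of the 30 tested markers, Cd14 rose, Cd3d and Fcnb fell, Lck passed as lower at signals near background, and 26 did not pass the test. Over all tested genes, 19.9% passed the test, 4.37% as higher with PCN and 15.5% as lower, so the number of markers called was not above this background. Among the 26 markers well above background on all 6 arrays 3 passed, beside 18.3% of all genes so detected. The fitted change was below 0 for 27 of the 30 markers, against 57.6% of all tested genes, and the median of the markers was −0.38 against −0.064 for all tested genes. Lck, Cd4 and Cd79b are among the 27, and their passage through the control arrays alone favoured a value below 0. Cd5, which passed through the PCN arrays alone, was above 0. With PCN replicate 3 left out, 21 of the 30 markers were below 0, against 57.4% of all tested genes, and their median was −0.16. All 3 PCN arrays lay below all 3 control arrays for 7 markers (Cd68, Cd163, Csf1r, Cd3d, Lck, Pax5 and Fcnb), against 26.7% of all tested genes. For Lck the filter favoured this outcome too. All PCN arrays lay above all control arrays for Cd14 alone among the markers, against 14.7% of all tested genes. In whole tissue, fewer cells of a type and less RNA per cell cannot be told apart.

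**Figure D1:**
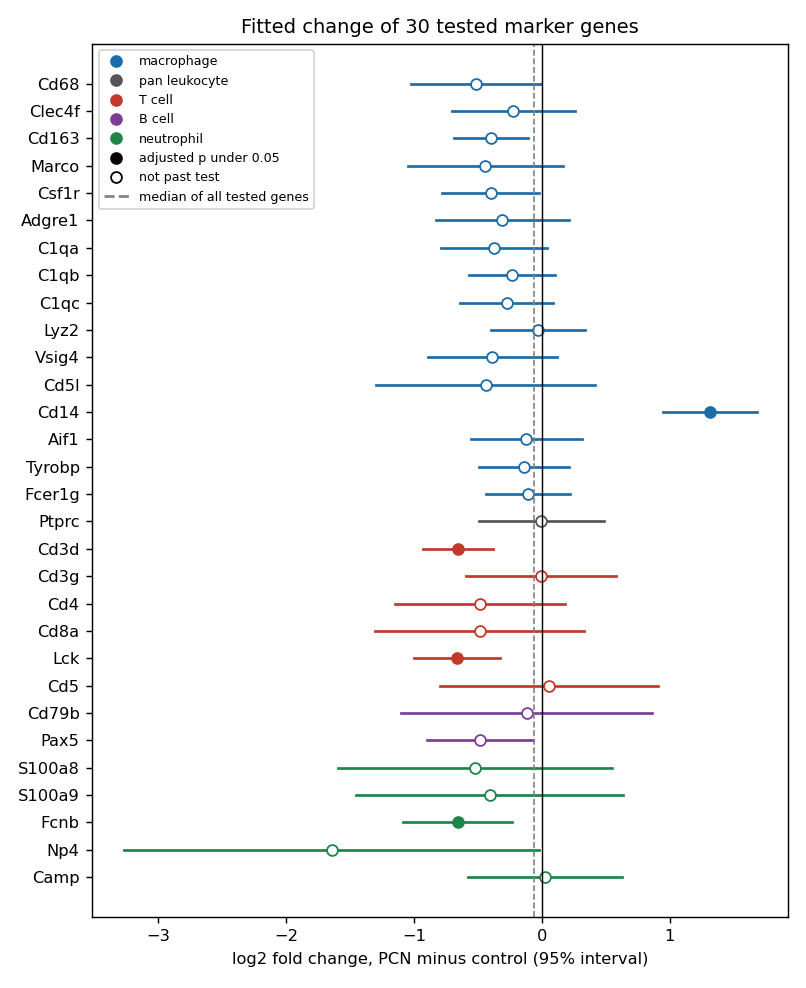
Log2 fold change of the 30 tested marker genes, PCN minus control, with the 95% interval from limma (n = 3 arrays per group). Filled points passed the test, open points did not, colours give the cell type of the marker, and the dashed line is the median of all tested genes (−0.064). Cd14 lies at 1.31 on the right, and most open points lie between −0.52 and 0.

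Cd14 encodes the co-receptor that hands bacterial lipopolysaccharide to Toll-like receptor 4. It is a marker of monocytes and macrophages, and hepatocytes can also make it and release a soluble form. Its scaled signal was 2.83, 2.89 and 3.28 in the livers of PCN rats, against 1.52, 1.81 and 1.72 in control livers. Every PCN array lay above every control array, and PCN replicate 3 was the highest. The means were 3.00 ± 0.25 in PCN livers and 1.69 ± 0.15 in control livers (SD, n = 3 each), a log2 fold change of 1.31 ± 0.15 (SE, 95% interval 0.95 to 1.68), or 2.48-fold (limma adjusted p = 0.00272). Without PCN replicate 3 the change was 1.17 ± 0.13 (limma adjusted p = 0.00546). Tlr4, the receptor that Cd14 serves, was looked up after its value was seen and gave −0.10 ± 0.21 (adjusted p = 0.770).

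Relative to other macrophage transcripts on the same arrays, Cd14 was higher in every PCN liver. Cd68 encodes a lysosomal glycoprotein of macrophages, and the log2 difference of Cd14 minus Cd68 was 1.11, 1.07 and 2.19 on the PCN arrays, against −0.52, −0.45 and −0.16 on the control arrays. Against Lyz2, the lysozyme gene of macrophages, the difference for Cd14 was 0.017, −0.41 and 0.46 on the PCN arrays and −1.56, −1.11 and −1.30 on the control arrays. For both pairs the groups did not overlap, and the exact two-sided permutation p was 0.1, the smallest that 3 against 3 arrays can give. For Cd68 this outcome was fixed, since Cd14 alone lay above and Cd68 alone below the control arrays on every PCN array. Lyz2 changed little (−0.031 ± 0.16), so its pair mostly repeats the separation of Cd14. Neither pair is a further test of Cd14. Such a difference sets 2 probes of unequal brightness against each other, so only its shift between the groups is read here.

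The promoter of Cd14 is shown because it is the marker that rose. It is the RefSeq sequence of the 250 bases before the annotated start, in GRCr8, minus strand, chr18:28611159-28611408. Capitals mark AGGAAG or its reverse complement CTTCCT, the short core bound by Ets factors, a family that includes the macrophage regulator Spi1 (PU.1). The 3 matches begin 210, 139 and 104 bases before the start.
Cd14: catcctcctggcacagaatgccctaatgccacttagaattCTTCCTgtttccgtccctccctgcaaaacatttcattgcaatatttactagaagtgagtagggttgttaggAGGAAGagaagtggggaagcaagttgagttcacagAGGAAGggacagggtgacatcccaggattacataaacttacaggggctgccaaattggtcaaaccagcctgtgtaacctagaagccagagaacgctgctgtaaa

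The other macrophage markers were level with or below the control livers, and 0 of these 15 passed limma's adjusted threshold. At an unadjusted p under 0.05, limma gave 3 of them as lower (Cd68, Cd163 and Csf1r), beside 24.5% of all tested genes. The median over the 16 tested macrophage markers was −0.29, against −0.064 for all tested genes, and 15 of the 16 were below 0. PCN replicate 3 was the lowest of the 6 arrays for 14 of the 16 (87.5%), against 17.3% of all tested genes. Lyz2, lowest in PCN replicate 1, and Cd14 were the exceptions. Without PCN replicate 3 the macrophage median was −0.079, 11 of 16 markers were below 0, and the median of all tested genes was −0.060. The summed signal of the 16 markers, in percent of the 75th percentile of the array, was 9971, 10177 and 7642 on the PCN arrays and 10479, 10455 and 9483 on the control arrays. C1qb and Clec4f weigh most in this sum (2780 and 2184 on PCN replicate 1). It also holds Cd14, which rose, at 710, 741 and 972 on the PCN arrays and 287, 352 and 329 on the control arrays. The low values of PCN replicate 3 stand beside its low 75th percentile and its low share of detected spots, whose part in the result was not tested.

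**Figure D2:**
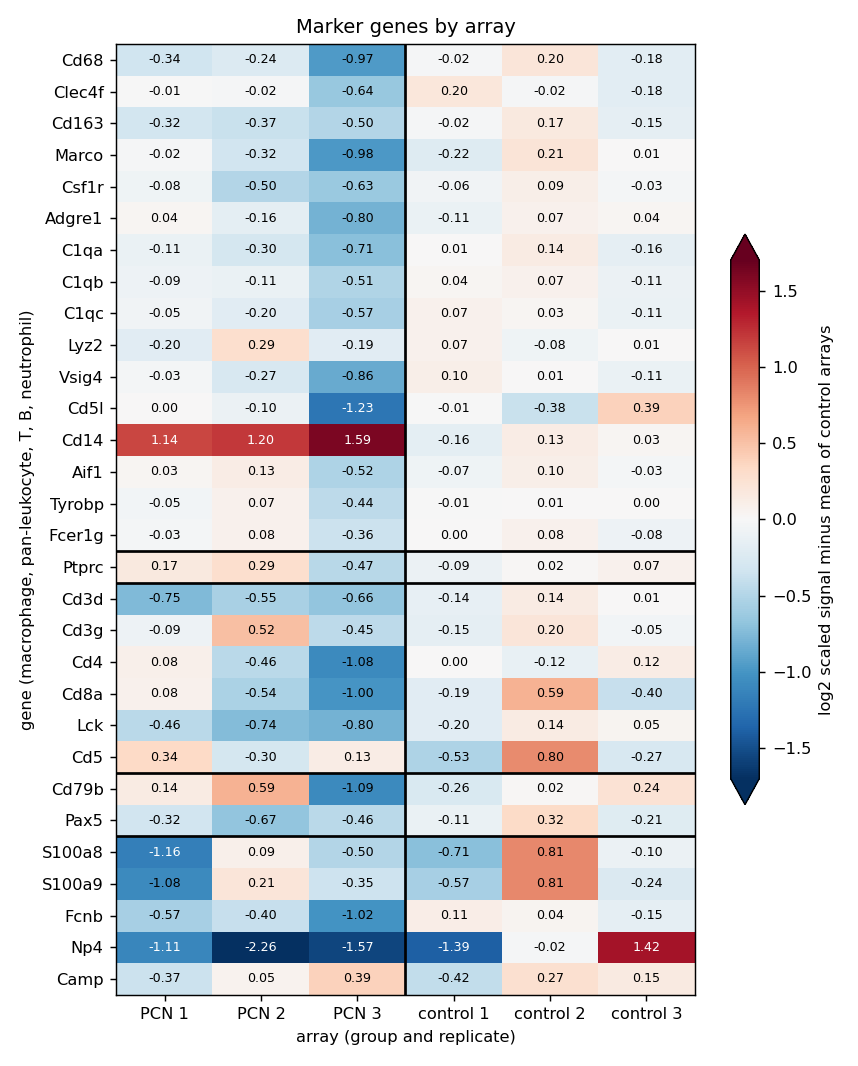
Log2 scaled signal of each tested marker on each array after subtraction of the mean of the 3 control arrays, with PCN arrays left and control arrays right of the thick line. Blue is below and red above the control mean, and genes are grouped as macrophage, all leukocytes, T cell, B cell and neutrophil. The column of PCN replicate 3 is blue for nearly all macrophage markers, while Cd14 is red on all 3 PCN arrays.

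Scavenger receptors and surface lectins clear particles, haemoglobin and bacteria from sinusoidal blood. Cd163, the receptor for haemoglobin bound to haptoglobin, was at 0.68, 0.62 and 0.50 in PCN livers, against 0.98, 1.17 and 0.85 in control livers. The groups did not overlap, and with −0.40 ± 0.12 (adjusted p = 0.0625) the difference missed the threshold. Cd68 was at 1.72, 1.82 and 1.09 in PCN livers, against 2.04, 2.26 and 1.88 in control livers (−0.52 ± 0.21, adjusted p = 0.140). Its groups did not overlap either, and PCN replicate 3 lay furthest from the rest.

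Clec4f was at 4.45, 4.44 and 3.82 in PCN livers, against 4.65, 4.44 and 4.28 in control livers (−0.22 ± 0.20, adjusted p = 0.481). PCN replicates 1 and 2 lay within the range of the control arrays and replicate 3 below it. Marco, a scavenger receptor for bacteria, was at −0.22, −0.51 and −1.17 in PCN livers, against −0.41, 0.020 and −0.19 in control livers (−0.44 ± 0.25, adjusted p = 0.269). Vsig4, the complement receptor of Kupffer cells, was at −1.49, −1.73 and −2.31 in PCN livers, against −1.36, −1.45 and −1.57 in control livers (−0.39 ± 0.21, adjusted p = 0.249). Groups overlapped for both, and replicate 3 was again the lowest PCN array. Cd5l, a secreted scavenger protein of tissue macrophages, spread most among the PCN arrays, at 0.61, 0.51 and −0.62, against 0.60, 0.23 and 1.00 on the control arrays (−0.44 ± 0.36, adjusted p = 0.436). A further Cd5l probe gave −0.77 ± 0.34 (adjusted p = 0.164 in a fit over all tested probes).

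The probes for Clec4f and Cd5l were spotted 10 times per array, which gives the noise within an array but not that of labelling or hybridisation. The log2 SD between spots of 1 array was 0.0247 to 0.0644 for Clec4f and 0.0423 to 0.0951 for Cd5l. The SD between arrays was 0.362 in PCN and 0.187 in control livers for Clec4f, and 0.685 in PCN and 0.384 in control livers for Cd5l. Spread between rats and error between arrays cannot be told apart in the SD between arrays.

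Csf1r encodes the receptor for the growth factors that maintain macrophages, and its 2 probes differed in their call. The brighter probe was at −1.66, −2.08 and −2.21 in PCN livers, against −1.64, −1.49 and −1.61 in control livers (−0.40 ± 0.16, adjusted p = 0.127). The dimmer probe, a single spot, was at −3.52, −4.02 and −4.07 in PCN livers, against −2.89, −2.99 and −2.98 in control livers. It gave −0.92 ± 0.16 (adjusted p = 0.0112 in a limma fit over all tested probes, an alternative added after the data were seen). PCN arrays lay below control arrays with both probes. The mean of both probes gave −0.66 (adjusted p = 0.0298), while the brighter probe with 1 array left out ranged from −0.56 (adjusted p = 0.0311, without PCN replicate 1) to −0.29 (adjusted p = 0.292, without PCN replicate 3), and 1 of the 6 such fits passed. Adgre1, a surface receptor that marks mature macrophages, was at −1.08, −1.28 and −1.92 in PCN livers, against −1.23, −1.04 and −1.08 in control livers (−0.31 ± 0.22, adjusted p = 0.367). For Adgre1 only PCN replicate 3 lay well outside the control range.

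C1qa, C1qb and C1qc encode the 3 chains of complement C1q, which macrophages secrete. C1qa was at 3.37, 3.18 and 2.77 in PCN livers, against 3.49, 3.62 and 3.32 in control livers (−0.37 ± 0.17, adjusted p = 0.185). C1qb was at 4.80, 4.78 and 4.38 in PCN livers, against 4.92, 4.95 and 4.78 in control livers (−0.23 ± 0.14, adjusted p = 0.297). C1qc was at 0.94, 0.79 and 0.42 in PCN livers, against 1.07, 1.03 and 0.89 in control livers (−0.27 ± 0.15, adjusted p = 0.256). The 3 chains followed each other from array to array. The difference of C1qc minus C1qb was −3.93 ± 0.066 on PCN arrays and −3.89 ± 0.034 on control arrays (SD, n = 3 each, exact two-sided permutation p = 0.4).

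Tyrobp and Fcer1g encode adaptor proteins that signal for activating receptors of myeloid cells, and Aif1 an actin-binding protein of macrophages. Tyrobp was at 2.78, 2.90 and 2.39 in PCN livers, against 2.82, 2.84 and 2.83 in control livers (−0.14 ± 0.15, adjusted p = 0.549). Fcer1g was at 1.44, 1.54 and 1.11 in PCN livers, against 1.47, 1.55 and 1.39 in control livers (−0.11 ± 0.14, adjusted p = 0.631). In both, PCN replicates 1 and 2 lay close to the control arrays and replicate 3 lay below them all. Aif1 was at 2.51, 2.60 and 1.95 in PCN livers, against 2.40, 2.57 and 2.45 in control livers (−0.12 ± 0.18, adjusted p = 0.683). Further probes for Aif1 (−0.21 ± 0.19) and Fcer1g (−0.20 ± 0.15) had the same low replicate and did not pass the test over all tested probes (adjusted p = 0.470 and 0.390 for the genes in that order). Lyz2 was at 2.81, 3.30 and 2.82 in PCN livers, against 3.08, 2.93 and 3.02 in control livers (−0.031 ± 0.16, adjusted p = 0.914), with PCN replicate 2 the highest of all arrays.

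Ptprc was at −1.71, −1.60 and −2.36 in PCN livers, against −1.98, −1.86 and −1.81 in control livers. PCN replicates 1 and 2 lay above every control array and replicate 3 below, and the fitted change was −0.0044 ± 0.20 (95% interval −0.49 to 0.48, adjusted p = 0.992). Without PCN replicate 3 it was 0.23. A dimmer Ptprc probe was at −4.69, −4.33 and −5.98 in PCN livers, against −4.28, −4.79 and −4.58 in control livers (−0.45 ± 0.41, adjusted p = 0.487 over all tested probes), with PCN replicate 3 again the lowest. The interval of the brighter probe leaves room for changes of either sign, so it does not show equal levels.

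Of the 3 T cell markers well above background on all 6 arrays (Cd3d, Cd3g and Cd8a), 1 passed the test, as lower, beside 13.5% of the 15026 genes detected in that way. Lck also passed, but it entered the test through the control arrays, where it was higher. Cd3d and Cd3g encode the delta and gamma chains of CD3, the signalling complex of the T cell receptor. Cd3d was at −1.88, −1.69 and −1.80 in PCN livers, against −1.28, −0.99 and −1.13 in control livers. All PCN arrays lay below all control arrays, and Cd3d fell by 0.66 on the log2 scale (SE 0.12, limma adjusted p = 0.0108), or 1.57-fold. Without PCN replicate 3 it fell by 0.65 (adjusted p = 0.0323).

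Cd3g did not pass the test. It was at −3.33, −2.72 and −3.69 in PCN livers, against −3.39, −3.04 and −3.29 in control livers (−0.0085 ± 0.25, 95% interval −0.60 to 0.58, adjusted p = 0.986). The log2 difference of Cd3d minus Cd3g was 1.45, 1.04 and 1.89 on the PCN arrays, against 2.11, 2.05 and 2.17 on the control arrays. The groups did not overlap, at the smallest exact two-sided permutation p that the design allows (0.1). As the mean of Cd3g changed little, this pair mostly repeats the separation of Cd3d and is no further test of it. Both probes were spotted 10 times, with a log2 SD between spots of 0.115 to 0.190 for Cd3d and 0.0706 to 0.134 for Cd3g. Between PCN arrays, Cd3g spread more (SD 0.487) than Cd3d (SD 0.0958). Cd3e, the epsilon chain of the same complex, was at −6.51, −6.18 and −7.40 in PCN livers, against −6.66, −6.30 and −6.82 in control livers, which is near background.

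The promoters of Cd3d and Cd3g are shown because these genes are neighbours and only Cd3d passed the test. In GRCr8 their RefSeq starts lie 1601 bases apart and the genes run away from each other. The windows of 250 bases before the start are chr8:54185269-54185518 on the plus strand for Cd3d and chr8:54183919-54184168 on the minus strand for Cd3g. Capitals again mark AGGAAG or CTTCCT, with 1 match 47 bases before the start of Cd3d and 1 match 236 bases before that of Cd3g.
Cd3d: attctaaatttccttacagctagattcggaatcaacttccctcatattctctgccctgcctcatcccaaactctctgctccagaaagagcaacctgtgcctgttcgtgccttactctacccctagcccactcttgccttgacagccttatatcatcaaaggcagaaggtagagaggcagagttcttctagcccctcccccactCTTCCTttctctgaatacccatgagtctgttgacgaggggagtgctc
Cd3g: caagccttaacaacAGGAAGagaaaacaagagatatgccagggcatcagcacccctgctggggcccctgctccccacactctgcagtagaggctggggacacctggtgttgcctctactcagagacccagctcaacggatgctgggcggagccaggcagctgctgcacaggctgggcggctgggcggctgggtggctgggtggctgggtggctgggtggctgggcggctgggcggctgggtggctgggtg

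Lck encodes the tyrosine kinase that first acts on an engaged T cell receptor. It was at −5.53, −5.81 and −5.87 in PCN livers, against −5.27, −4.93 and −5.02 in control livers, with a fitted change of −0.67 ± 0.14 (limma adjusted p = 0.0203). Groups did not overlap, but Lck was tested because of its signal in control livers, and 2 of 3 PCN arrays were not well above background, so no fold is given. The call depended on single arrays, with an adjusted p of 0.0563 without PCN replicate 2, 0.0590 without PCN replicate 3, 0.0662 without control replicate 2 and 0.0688 without control replicate 3. With the normexp background correction the value was 0.058 (adjusted p = 0.741), so the direction turned as well.

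Cd4 and Cd8a mark helper and cytotoxic T cells, and in the rat CD4 is also carried by macrophages. Cd4 was at −4.81, −5.35 and −5.97 in PCN livers, against −4.89, −5.01 and −4.77 in control livers (−0.49 ± 0.28, adjusted p = 0.269). Cd8a was at −4.46, −5.08 and −5.54 in PCN livers, against −4.73, −3.95 and −4.94 in control livers (−0.49 ± 0.34, adjusted p = 0.365). Groups overlapped for both, and PCN replicate 1 lay inside the control range. Cd5, a receptor that dampens T cell receptor signals, was dim, at −6.00, −6.64 and −6.20 in PCN livers, against −6.86, −5.53 and −6.61 in control livers (0.056 ± 0.36, adjusted p = 0.932).

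PCN replicate 3 was the lowest array for 4 of the 6 T cell markers, and the median of the 6 was −0.49 with it and −0.21 without it. Lck and Cd4 passed the filter through the control arrays, which favoured values below 0. Over the 3 T cell markers well above background on all 6 arrays the median was −0.49. The summed signal of the T cell markers was 49.0, 54.4 and 43.4 percent of the 75th percentile on the PCN arrays, against 61.5, 77.4 and 67.1 percent on the control arrays. Those sums did not overlap between groups, and they rest mostly on the probe for Cd3d.

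Both tested B cell markers did not pass the test (0 of 2, with 19.9% of all tested genes called). Cd79b, a signalling chain of the B cell receptor, was at −3.83, −3.38 and −5.06 in PCN livers, against −4.23, −3.95 and −3.73 in control livers (−0.12 ± 0.41, adjusted p = 0.872). PCN arrays were both the highest and the lowest. Pax5, the transcription factor that commits cells to the B lineage, was at −0.26, −0.61 and −0.40 in PCN livers, against −0.049, 0.39 and −0.15 in control livers (−0.49 ± 0.17, adjusted p = 0.0967). Its groups did not overlap, and the probe was a single spot. The other 2 listed B cell genes had no matched probe.

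Among neutrophil markers, 1 of 5 tested genes fell, beside 15.5% of all tested genes, 0 rose and 4 did not pass, with a median of −0.52. Fcnb encodes ficolin B, a soluble lectin of myeloid cells that recognises microbial sugars. It was at −2.48, −2.31 and −2.93 in PCN livers, against −1.81, −1.87 and −2.07 in control livers. Groups did not overlap, and Fcnb fell by 0.66 on the log2 scale (SE 0.18, limma adjusted p = 0.0433), or 1.58-fold. The call depended on single arrays: it was lost without PCN replicate 1 (adjusted p = 0.0771), PCN replicate 3 (0.0694), control replicate 1 (0.128), control replicate 2 (0.114) or control replicate 3 (0.0737).

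The promoter of Fcnb is shown as that of the neutrophil marker that fell. The RefSeq window in GRCr8 is chr3:31800189-31800438 on the minus strand, with 1 match to AGGAAG, in capitals, 86 bases before the start.
Fcnb: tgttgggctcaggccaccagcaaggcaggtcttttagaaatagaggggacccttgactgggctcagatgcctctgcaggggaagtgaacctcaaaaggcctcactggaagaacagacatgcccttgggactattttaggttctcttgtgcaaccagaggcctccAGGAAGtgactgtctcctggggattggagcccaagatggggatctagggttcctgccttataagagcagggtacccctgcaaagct

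S100a8 and S100a9 encode the partner chains of calprotectin, an abundant protein of the neutrophil cytosol. S100a8 was at −3.22, −1.97 and −2.56 in PCN livers, against −2.77, −1.24 and −2.16 in control livers (−0.52 ± 0.45, adjusted p = 0.459). S100a9 was at −2.60, −1.32 and −1.88 in PCN livers, against −2.10, −0.72 and −1.77 in control livers (−0.41 ± 0.44, adjusted p = 0.560). Both genes put the 6 arrays in the same order, with control replicate 2 and PCN replicate 2 at the top and PCN replicate 1 at the bottom. The difference of S100a8 minus S100a9 was −0.61, −0.64 and −0.68 on the PCN arrays, against −0.67, −0.53 and −0.39 on the control arrays (exact two-sided permutation p = 0.3). The spread between arrays, which both genes shared, was larger than the difference between the groups. In each group replicate 1 was the lowest and replicate 2 the highest for both genes.

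Np4 encodes a neutrophil defensin, an antimicrobial peptide of the granules, and Camp encodes a cathelicidin. Np4 was at −3.10, −4.26 and −3.56 in PCN livers, against −3.39, −2.02 and −0.58 in control livers. It had the lowest fitted value of all tested markers (−1.64 ± 0.68, 95% interval −3.27 to −0.020), and its control arrays spread so widely (SD 1.40) that the adjusted p was 0.141. With 1 array left out, Np4 ranged from −2.34 (adjusted p = 0.0430, without control replicate 1) to −0.94 (adjusted p = 0.273, without control replicate 3), and 1 of the 6 such fits passed. Related defensin transcripts may reach the same probe, which was not tested. Defa5, a further defensin gene, was named after its values were seen. It was at −2.76, −4.31 and −3.15 in PCN livers, against −3.54, −2.07 and −0.68 in control livers. These values lay close to those of Np4, and whether the probes share a signal was not tested. Camp was at −1.66, −1.24 and −0.90 in PCN livers, against −1.72, −1.02 and −1.14 in control livers (0.023 ± 0.25, adjusted p = 0.962) and did not follow Np4 from array to array. Without control replicate 2 the neutrophil median was −0.12, and without PCN replicate 3 it was −0.48.

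**Figure D3:**
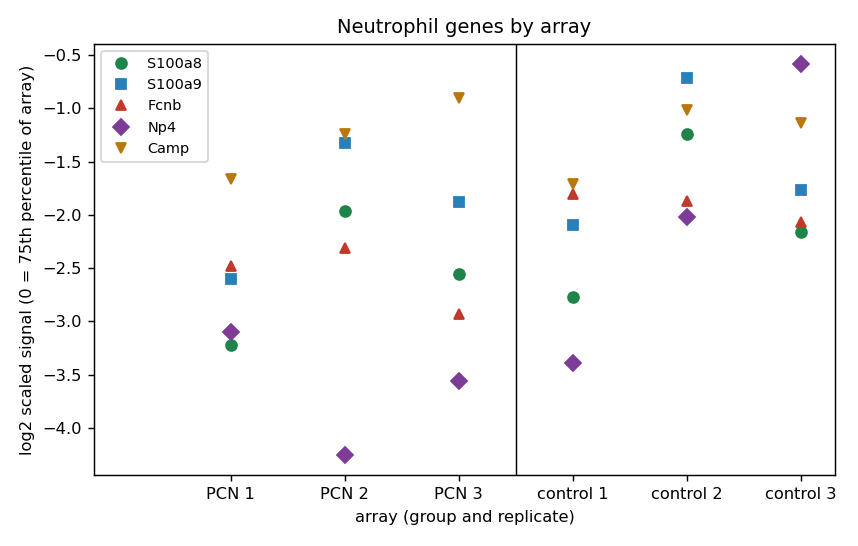
Log2 scaled signal of the 5 tested neutrophil markers on each array, PCN arrays left and control arrays right of the line. S100a8 and S100a9 go up and down together, Np4 spans −3.39 to −0.58 among the control arrays, and Fcnb is lower on every PCN array than on any control array.

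Genes that work beside these markers were described from further lists. The counts of each list stand beside 15.5% of all tested genes that passed as lower and 4.37% as higher. Without PCN replicate 3, 2112 of the 16389 tested genes passed as lower and 407 as higher, against 2547 and 716 with all arrays. A list can therefore lose calls in that fit because fewer arrays are left. Among regulators of macrophage growth and identity, 11 of 13 genes were tested, 1 fell and 0 rose, with a median of −0.0084. Id3, an inhibitor of transcription factors that Kupffer cells need in mice, was at −3.74, −2.83 and −3.66 in PCN livers, against −1.32, −1.16 and −1.43 in control livers. It fell by 2.10 on the log2 scale (SE 0.25, limma adjusted p = 0.00274). Other liver cells express Id3 too. Among phagocyte receptors, 15 of 19 were tested, 3 passed as lower and 0 as higher, beside 15.5% and 4.37% of all tested genes, with a median of −0.17. Cd36, a receptor for fatty acids and oxidised lipoproteins that hepatocytes and endothelium also carry, fell by 1.00 (SE 0.16, adjusted p = 0.00784). Fcgr2a, a receptor for immunoglobulin G, fell by 0.63 (SE 0.10, adjusted p = 0.00793). Trem2, a lipid receptor of macrophages, gave −0.65 ± 0.18 (adjusted p = 0.0454), but it too was tested because of its signal in control livers, with 2 of 3 PCN arrays well above background. Of the phagocyte receptors 1 was higher and 2 were lower without PCN replicate 3, with a median of −0.024.

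Among lysosome and phagosome genes, 14 of 14 were tested, 2 fell and 0 rose, with a median of −0.22. Lamp2, a protein of the lysosomal membrane, fell by 0.45 (SE 0.11, adjusted p = 0.0368). Slc40a1, the iron exporter ferroportin, through which macrophages release recycled iron, fell by 0.77 (SE 0.20, adjusted p = 0.0385). Among chemokines and cytokines, 19 of 23 were tested and 1 fell, the eosinophil attractant Ccl24 (−0.36 ± 0.09, adjusted p = 0.0412), with a median of −0.28. Without PCN replicate 3, 0 genes of either list passed, in a fit that also called fewer of all tested genes. The medians were then −0.053 for lysosome genes and 0.048 for chemokines and cytokines. Among chemokine receptors, 4 of 9 were tested and 0 passed. Cx3cr1, the fractalkine receptor of monocytes, was the brightest, at −0.66 ± 0.19 (adjusted p = 0.0502).

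Among genes of T cell signalling, 9 of 16 were tested and 2 passed as lower, beside 15.5% of all tested genes. Cd8b, the partner chain of Cd8a, fell by 0.99 (SE 0.22, adjusted p = 0.0228). Lat, an adaptor phosphorylated after receptor engagement, gave −0.70 ± 0.18 (adjusted p = 0.0415), but was tested because of its signal in control livers, with 2 of 3 PCN arrays well above background. Among genes of natural killer and cytotoxic cells, 8 of 12 were tested and 2 passed as lower, beside the same share of all tested genes. Klrk1, the activating receptor NKG2D, fell by 0.91 (SE 0.22, adjusted p = 0.0300). Gzmb, the protease granzyme B, gave −1.65 ± 0.41 (adjusted p = 0.0344), but it was tested because of its signal in control livers, with 2 of 3 PCN arrays well above background. Their medians were near that of all tested genes, at −0.16 and −0.033. Without PCN replicate 3, 1 gene of T cell signalling and 0 of the cytotoxic list passed.

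The remaining leukocyte lists had 0 genes past limma's adjusted threshold. For B and plasma cells 5 of 14 genes were tested, and Fcrla, an Fc receptor-like protein of B cells, gave the brightest signal. It was at −1.80, −2.35 and 0.80 in PCN livers, against −2.69, −2.72 and −2.66 in control livers (1.57 ± 0.75, adjusted p = 0.193), with PCN replicate 3 far above all others. Of 15 further granule and surface genes of neutrophils only 2 were tested, with a median of −0.78 (−0.92 without PCN replicate 3). The brighter was Lcn2, a siderophore-binding protein that hepatocytes also secrete (−0.25 ± 0.18, adjusted p = 0.375). The other was the defensin gene Defa5 (−1.31 ± 0.73, adjusted p = 0.258). Of 18 genes of leukocyte adhesion and signalling 14 were tested, with a median of −0.083. The brightest was Laptm5, a lysosomal protein of blood cells that also stands in the lysosome list (−0.17 ± 0.13, adjusted p = 0.404).

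**Figure D4:**
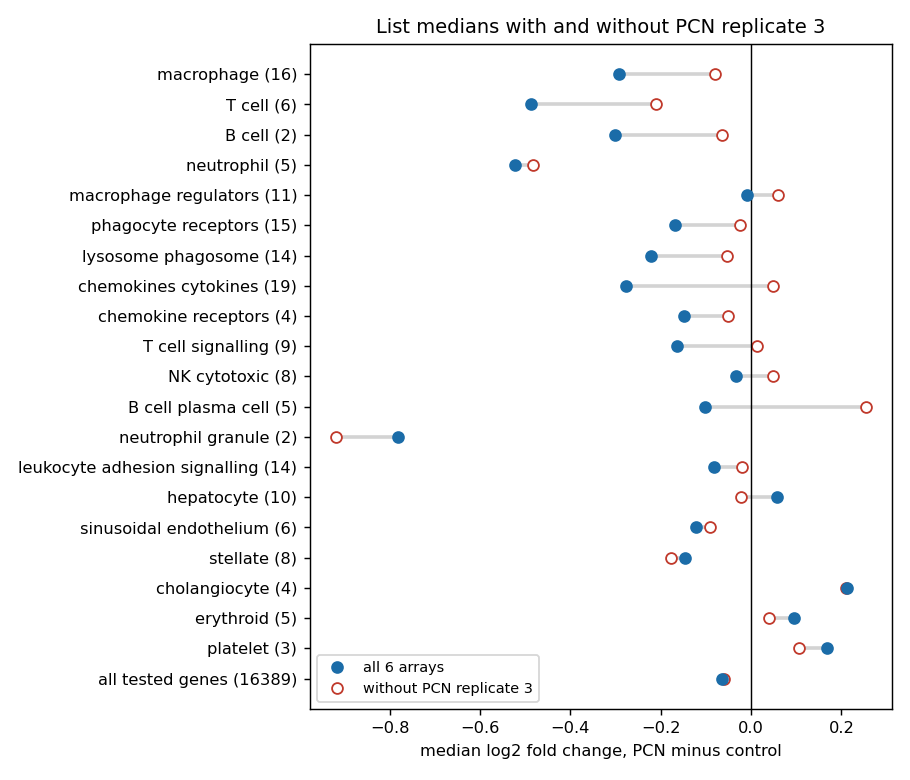
Median log2 fold change (PCN minus control) of each gene list, with the number of tested genes in brackets. Filled points use all 6 arrays and open points leave out PCN replicate 3. The macrophage median lies at −0.29 with all arrays and at −0.079 without that replicate, and the neutrophil median at −0.52 and −0.48.

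Markers of other liver cell types give the setting of these values. Their counts, too, stand beside 15.5% of all tested genes that passed as lower and 4.37% as higher. In the fit without PCN replicate 3 they stand beside 2112 lower and 407 higher of 16389 tested genes. Of 10 hepatocyte markers 1 rose and 0 fell, with a median of 0.058 (−0.023 without PCN replicate 3). Hnf4a, a transcription factor of hepatocytes, rose by 0.63 (SE 0.13, adjusted p = 0.0160). The mean log2 level of the hepatocyte markers was 6.88, 6.63 and 6.95 on PCN arrays, with replicate 3 the highest, against 6.69, 6.77 and 6.72 on control arrays. The part of a higher hepatocyte share in the low macrophage values of PCN replicate 3 was not tested. Of 6 tested markers of sinusoidal endothelium 1 fell, the cadherin gene Cdh5 (−0.49 ± 0.14, adjusted p = 0.0496). The count of endothelial markers past the test was 0 without PCN replicate 3. The list for stellate cells, which store vitamin A, held 8 tested genes, of which 1 rose and 2 fell. Lrat, which stores retinol as esters, fell by 1.33 (SE 0.22, adjusted p = 0.00867), Acta2, smooth muscle actin, fell by 0.74 (SE 0.16, adjusted p = 0.0225), and Rgs5, a pericyte marker, rose by 0.96 (SE 0.17, adjusted p = 0.0119). Of these markers 1 was higher and 1 lower without PCN replicate 3.

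Of 4 tested bile duct markers 0 passed, with Epcam the brightest at 0.60 ± 0.18 (adjusted p = 0.0586). Of 5 tested markers of red blood cells 0 passed, with the globin gene Hba-a1 at 0.00059 ± 0.12 (adjusted p = 0.999). Of 3 tested platelet markers 1 fell, Gp9, a chain of the platelet receptor for von Willebrand factor (−0.54 ± 0.13, adjusted p = 0.0325), and without PCN replicate 3 the count was 0. The medians were 0.096 for red cell, 0.17 for platelet and 0.21 for bile duct markers, all above that of all tested genes (−0.064). Those of sinusoidal endothelium (−0.12) and stellate cells (−0.15) were below it, as for the macrophage markers. Without PCN replicate 3 they were −0.090 and −0.18, against −0.060 for all tested genes.

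The promoters of the markers were searched for short motifs of factors known from leukocytes. RefSeq gave a window for 28 of the 37 markers, with 29 windows in all because Lck has 2 starts. The short Ets core AGGAAG, on either strand, was in 20 of the 29 windows (69.0%), against 29.5% of 33469 windows of this length. It was in 8 of 13 macrophage, 6 of 8 T cell and 4 of 6 neutrophil windows. The longer Spi1 core GAGGAAGT, which contains the short one, was in 1 window, that of Cd5, against 2.04% of all windows. The loose Cebp core TTGCNNAA was in 2 of 13 macrophage and 2 of 6 neutrophil windows, against 9.22% of all windows, and the strict form TTGCGCAA in 0 marker windows, against 0.14%. The Ebf1 core CCCNNGGGA was in 1 macrophage and 2 neutrophil windows, against 5.12%. A match says only that these letters stand in the window. Cd14, Cd3d and Fcnb, which moved, and Cd3g, which did not pass the test, all held the short Ets core.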

How the data were processed

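Total RNA of 6 rat livers (3 PCN, 3 control; 100 ng each) was labelled and hybridised to 1-colour Agilent arrays, per the labels. The deposited intensity values are processed signals from which Agilent Feature Extraction 10.7.3.1 had subtracted background, per the file headers. A deposited table of linear ratios by the authors came with no statement of scale, centring or direction. Against the scanner files it matched processed signal over the 75th percentile of the array, with no centring of genes (r of 1 on the log scale; column medians 0.08 for PCN and 0.09 for control arrays). The authors' own test of genes was not given in the sources used here. Per the file headers, the array design refers to rn4. Gene names and promoter windows come from RefSeq tables of GRCr8, so no rn4 coordinates are given.

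With R 4.3.3 and the data.table package (version 1.17.8), log2 processed signal minus that of the 75th percentile over the 58717 non-control spots was taken, with outlier-marked spots left out and spots of a probe averaged. Probes well above background on all 3 arrays of a group were tested (18329), where a share of at least 0.5 of the spots of a probe had to carry that mark. The brightest tested probe stood for a gene, which left 16389 genes and features, 10044 with a symbol. limma 3.58.1 (lmFit, eBayes, two-sided, no covariate) compared the groups, with a Benjamini-Hochberg adjusted p under 0.05 as threshold, and every adjusted p in the text is limma's. The steps were tested on simulated data. By the labels, each sample is a biological replicate. The number of arrays limits the precision.

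All 37 markers are named. Of each further list, up to 3 genes past the test, or the brightest gene where none passed, are named. Tlr4 and Defa5 are named besides, after their values were seen. The markers and lists were chosen with earlier results of these data known. Alternatives were quantile normalization, median scaling, E1A spike-in scaling, cyclic loess, normexp (offset 50, on the median signal, since the files hold no mean signal), the deposited ratios (floor 0.01), other filters and probe rules, a replicate block and leaving out each array. Each probe tested on its own was added after the data were seen. Over all genes, same-numbered arrays did not deviate together, which cannot show whether the numbers pair the rats. S100a8 and S100a9 had the same order of replicates in both groups.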

Additional observations from a re-analysis of the deposited data

How the results depend on the processing

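Cd14 rose and Cd3d fell under all 17 alternatives, from 1.07 to 1.52 for Cd14 and from −0.90 to −0.45 for Cd3d. Lck passed the test under 8 of the 16 alternatives in which it was tested, and Fcnb under 7 of 17. The number of markers called, 4 of 30, became 2 with quantile normalization, 7 with spike-in scaling and 2 without the filter on dim probes, and ranged from 2 to 4 with 1 array left out. It was 2 without PCN replicate 3, control replicate 2 or control replicate 3. The spike-in calls added Cd163, Csf1r and Pax5. Over all genes, 3263 calls became 1967 without the filter, and ranged from 2023 to 2592 with 1 array left out.

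The split of calls moved with the scaling. It was 716 higher and 2547 lower as reported, 1427 and 1770 with quantile normalization, 2686 and 1866 with median scaling, 169 and 4579 with spike-in scaling, 1093 and 2027 with cyclic loess, and 794 and 1435 with normexp. The median of all genes was −0.064 as reported, 0.14 with median scaling and −0.31 with spike-in scaling. These scalings shift all genes of an array alike, so relative to it the macrophage median was −0.23 in each by construction, and −0.019 without PCN replicate 3. The macrophage median itself was −0.085 with median scaling and −0.54 with spike-in scaling, and −0.41 to −0.079 with 1 array left out. The T cell median was −0.11 with quantile normalization and 0.10 with normexp, and −0.69 to −0.21 with 1 array left out. The neutrophil median was −0.79 to −0.12 and the B cell median −0.43 to −0.065 with 1 array left out. The causes were not tested.

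Of the called markers, Lck alone reversed its direction; the other reversals were of markers that had not passed the test. With median scaling, Aif1 was 0.085, Cd3g 0.20, Cd79b 0.089, Fcer1g 0.10, Lyz2 0.18, Ptprc 0.20 and Tyrobp 0.066. With spike-in scaling, Camp was −0.23 and Cd5 −0.19. With cyclic loess, Cd3g was 0.21, Cd79b 0.16 and Ptprc 0.11, and with quantile normalization 0.24, 0.22 and 0.15 for the same genes in that order. With normexp, Cd3g was 0.14, Cd4 0.12, Cd79b 0.11, Cd8a 0.086, Lck 0.058 and Ptprc 0.069. With 1 array left out, Aif1 ranged from −0.24 to 0.080, Camp from −0.19 to 0.22, Cd3g from −0.27 to 0.21, Cd5 from −0.21 to 0.46, Cd79b from −0.47 to 0.37, Fcer1g from −0.20 to 0.022, Lyz2 from −0.19 to 0.052, Ptprc from −0.15 to 0.23 and Tyrobp from −0.24 to 0.010.

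With the replicate number as a block, 2067 genes and 3 markers passed the test, Lck being lost (adjusted p = 0.0722). The SE moved either way. It fell from 0.45 to 0.12 for S100a8 and from 0.44 to 0.14 for S100a9, and rose from 0.36 to 0.40 for Cd5l. With the block, S100a8 and S100a9 did not pass the test (limma adjusted p = 0.0637 and 0.143). Deviations of arrays with the same number correlated at −0.10, −0.026 and −0.052, and 0 of 3 PCN arrays correlated best with the control array of its own number. Signal over background limits Cd3e, Cd2, Cxcr2, Lck, Cd4, Cd5 and Cd79b.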
